A study of Mus musculus with 6 samples.

Results

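The genes described here are 9 members of the major histocompatibility complex (MHC) antigen presentation pathway, chosen by symbol from the 32285 genes of the deposited tables. B2m, H2-D1, H2-K1, H2-T23 and Tap1 belong to the class I pathway, and Cd74, H2-Aa, H2-Ab1 and H2-Eb1 to the class II pathway. All 9 identifiers matched the gene annotation, and every gene was counted in all 6 sections. The sections were coronal slices, 16 µm thick, of frozen brains of male C57BL/6J mice, with 2 sections each at 6 months (young), 18 months (middle) and 21 months (old). No genotype or treatment other than age is given. The labels name 2 males at each age, and the sections of an age were treated as separate animals. Both young sections, middle 1 and old 1 shared slide 1, whereas middle 2 and old 2 were on slide 2, so slide and age are partly confounded.

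MHC class I molecules sit on the surface of nearly all nucleated cells and show peptides from inside the cell to CD8 T cells and natural killer cells. Class II molecules are made mainly by macrophages, dendritic cells and B cells and show peptides from ingested material to CD4 T cells. In the resting brain, class II is known from macrophages of the meninges, the choroid plexus and vessel walls, while resting microglia, the macrophages of the tissue itself, carry little of it.

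In the Visium assay RNA is captured from a section by spots that each carry a positional barcode, and each unique molecular identifier (UMI) counts 1 captured transcript molecule. A spot can hold several cells of different types, so fewer cells of a type and less RNA per cell cannot be told apart. Levels are given as CPM, the UMIs of a gene per 1000000 UMIs of all genes in the same set of spots. Totals ran from 60939185 to 77557934 UMIs per section, and both old sections were the shallowest. Young 1 stood apart as the lowest of the 6 sections for 34.1% of genes over the whole section, and for all 5 class I genes. Spots were grouped by like transcripts, without using the 9 genes, into 8 regions named from marker genes, and spots of each region were summed within a section. White matter was 1 cluster led by myelin genes, with 229 to 314 spots per section. The mix of regions differed in young 1. It had 62 hippocampal formation spots (2.41% of its spots), against 179 to 286 in the other sections, and the largest share of striatum spots (8.78%). Its whole-section levels therefore cover another mix of regions. A change is a log2 fold change from edgeR's quasi-likelihood test over the 6 sections, and a call required a p under 0.05 after Benjamini-Hochberg adjustment over all genes tested.

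Of the class I members, H2-K1 and H2-D1 encode the classical heavy chains that hold the peptide, and H2-T23 encodes Qa-1, a nonclassical heavy chain read by natural killer cell receptors. B2m encodes beta-2 microglobulin, the light chain that all of these need to reach the surface. Tap1 encodes a subunit of the transporter that carries peptides into the endoplasmic reticulum. Of the class II members, H2-Aa and H2-Ab1 encode the alpha and beta chains of I-A, and H2-Eb1 encodes the beta chain of I-E. C57BL/6 mice carry a haplotype that does not express the I-E alpha chain, so the H2-Eb1 transcript marks class II transcription and not an assembled I-E molecule. Cd74 encodes the invariant chain, which escorts new class II molecules and fills their groove until peptide is loaded.

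In GRCm38, 7 of the genes lie in the MHC region of chromosome 17. H2-K1 spans chr17:33996017-34000347 on the minus strand, Tap1 chr17:34187553-34197225 on the plus strand, H2-Ab1 chr17:34257689-34269419 on the plus strand and H2-Aa chr17:34282744-34287823 on the minus strand. H2-Eb1 spans chr17:34305867-34316674 and H2-D1 chr17:35262730-35267499, both on the plus strand, and H2-T23 spans chr17:36029773-36032855 on the minus strand. B2m lies apart at chr2:122147686-122153083 on the plus strand, and Cd74 lies on another chromosome. H2-K1 and H2-D1 are near copies of each other. In the last 400 bases of their longest coding transcripts, where this 3′ assay reads, 2 of 351 words of 50 bases were shared between them, and 43 words of H2-D1 occurred in a transcript of any other gene. H2-T23 shared 20 of 351 such words with the pseudogene H2-T-ps and 127 with any other gene, so its counts are less certain. B2m, H2-T23, Tap1 and H2-Eb1 overlap a gene on the opposite strand (Patl2, A930015D03Rik, Psmb9 and Gm20513), and the strand setting of the counting is not given in the sources used here.

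B2m, H2-D1 and H2-K1 rose and fell together across regions, as did the class II genes, though H2-K1 followed Cd74 as well. H2-T23 and Tap1 followed these genes less closely. RefSeq promoter sequences (GRCm38.p6) were matched for 7 of the genes. For that reason the 250 bases before the RefSeq transcription start of 5 of them are printed here. They read 5′ to 3′ along the gene's strand, from chr17:34000348-34000597 (H2-K1, minus), chr17:35262844-35263093 (H2-D1, plus), chr2:122147437-122147686 (B2m, plus), chr17:34287824-34288073 (H2-Aa, minus) and chr17:34305617-34305866 (H2-Eb1, plus). Capitals mark 4 short motifs searched on both strands.
H2-K1: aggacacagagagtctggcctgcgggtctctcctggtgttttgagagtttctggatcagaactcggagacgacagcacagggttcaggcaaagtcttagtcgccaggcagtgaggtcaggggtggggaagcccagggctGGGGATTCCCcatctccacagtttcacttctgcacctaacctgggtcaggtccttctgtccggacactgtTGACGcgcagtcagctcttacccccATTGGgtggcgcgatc
H2-D1: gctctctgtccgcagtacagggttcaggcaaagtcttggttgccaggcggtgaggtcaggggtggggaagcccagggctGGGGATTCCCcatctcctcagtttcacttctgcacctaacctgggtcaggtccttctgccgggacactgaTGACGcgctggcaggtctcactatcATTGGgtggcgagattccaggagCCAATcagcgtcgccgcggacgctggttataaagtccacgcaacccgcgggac
B2m: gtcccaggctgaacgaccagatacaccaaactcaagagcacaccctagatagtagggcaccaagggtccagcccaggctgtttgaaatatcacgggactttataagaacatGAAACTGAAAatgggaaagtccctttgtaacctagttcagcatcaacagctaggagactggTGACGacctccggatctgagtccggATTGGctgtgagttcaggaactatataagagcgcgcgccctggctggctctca
H2-Aa: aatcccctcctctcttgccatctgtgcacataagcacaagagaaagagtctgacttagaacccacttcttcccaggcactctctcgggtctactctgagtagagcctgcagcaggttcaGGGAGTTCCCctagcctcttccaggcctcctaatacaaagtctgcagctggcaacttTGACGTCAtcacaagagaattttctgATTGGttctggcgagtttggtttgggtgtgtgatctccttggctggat
H2-Eb1: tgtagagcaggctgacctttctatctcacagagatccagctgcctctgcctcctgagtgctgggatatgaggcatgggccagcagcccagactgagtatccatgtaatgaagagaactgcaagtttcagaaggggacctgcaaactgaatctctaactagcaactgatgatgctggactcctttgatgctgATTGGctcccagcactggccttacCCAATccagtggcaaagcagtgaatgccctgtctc

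The first motif is CCAAT and the second is TGACG, each also marked where its reverse complement occurs. The third is a pair of GAAA with 2 bases of any kind between them. The fourth has GGG, then 2 bases of any kind, then TTCCC. They resemble the Y box, the core of a cyclic AMP response element, an interferon-stimulated response element and an NF-kB site. All 7 promoters matched, including those of H2-T23 and Tap1, held CCAAT on either strand, against 33.8% of 32851 promoter windows of the same length. TGACG was in 5 of the 7, against 17.8% of windows, and absent from the windows of H2-T23 and H2-Eb1. The gapped motif with GGG was in H2-K1, H2-D1 and H2-Aa, against 1.53% of windows. The repeat of GAAA was in B2m and H2-T23, against 2.98%. In H2-Aa the TGACG matches of both strands overlap. The H2-D1 window lies inside the gene span given above, and the H2-K1 window lies just outside its own, so the starts differ between the 2 sources. Which motifs a window holds depends on the start used, also between these near copies. A match is only a run of letters, and binding was not measured.

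The 9 genes differed in where they were found (the map of mean levels by region). Every one of the 9 had its highest mean level in the meninges, the membranes around the brain. The class II genes were far more concentrated there than the class I genes. Cd74 averaged 143.6 ± 34.0 CPM (SD, n = 6 sections) in meninges. Its mean in choroid plexus and ventricle was 72.8 ± 38.6, that in white matter 15.8 ± 10.8 and that in isocortex 2.05 ± 0.91. That placed the meninges at 21.0 times its whole-section level and the isocortex at 0.30 times. For H2-Aa, H2-Ab1 and H2-Eb1 the meninges stood at 24.2, 19.7 and 18.0 times the whole-section level, and choroid plexus and ventricle at 12.3, 11.5 and 11.9 times. For each of the 4 class II genes choroid plexus and ventricle was above white matter, the next region down, in 6 of 6 sections. Their ranges of mean ± SD did not overlap, and overlap between regions is meant in this sense here and below. Below white matter, the neighbouring regions in the order overlapped for all 4 genes, and the isocortex was lowest for each.

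Class I genes were spread through the tissue. B2m averaged 435 ± 76 CPM (SD, n = 6) in meninges, 342 ± 113 in white matter and 273 ± 58 in choroid plexus and ventricle. The next region, without overlap of mean ± SD, was isocortex at 160 ± 14, and the lowest was striatum at 127 ± 27. H2-D1 had the same leading 3 regions, at 182 ± 42, 139 ± 46 and 117 ± 30 CPM, and then 47.8 ± 9.2 in hypothalamus. H2-K1 averaged 144 ± 34 CPM in meninges, 124 ± 24 in choroid plexus with ventricle and 94.1 ± 23.02 in white matter, and the next region, thalamus, was at 35.4 ± 5.3. For B2m, H2-D1 and H2-K1 the 3 leading regions overlapped with their neighbours by mean ± SD, and the third did not overlap the fourth.

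H2-T23 had another order. Meninges led at 45.7 ± 12.8 CPM (SD, n = 6), with no overlap of mean ± SD with the next region. Choroid plexus and ventricle (21.7 ± 7.5) and isocortex (20.2 ± 3.0) overlapped each other, and white matter was at 13.1 ± 6.0. Thalamus was lowest at 6.13 ± 1.69 CPM. The isocortex value of H2-T23 was 27.9 CPM at the coarser clustering. Tap1 averaged 10.9 ± 6.4 CPM in meninges. Choroid plexus and ventricle followed at 10.0 ± 3.2, then white matter at 5.42 ± 2.77, with thalamus lowest at 1.90 ± 0.58, and all its neighbouring regions overlapped.

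**Figure D1:**
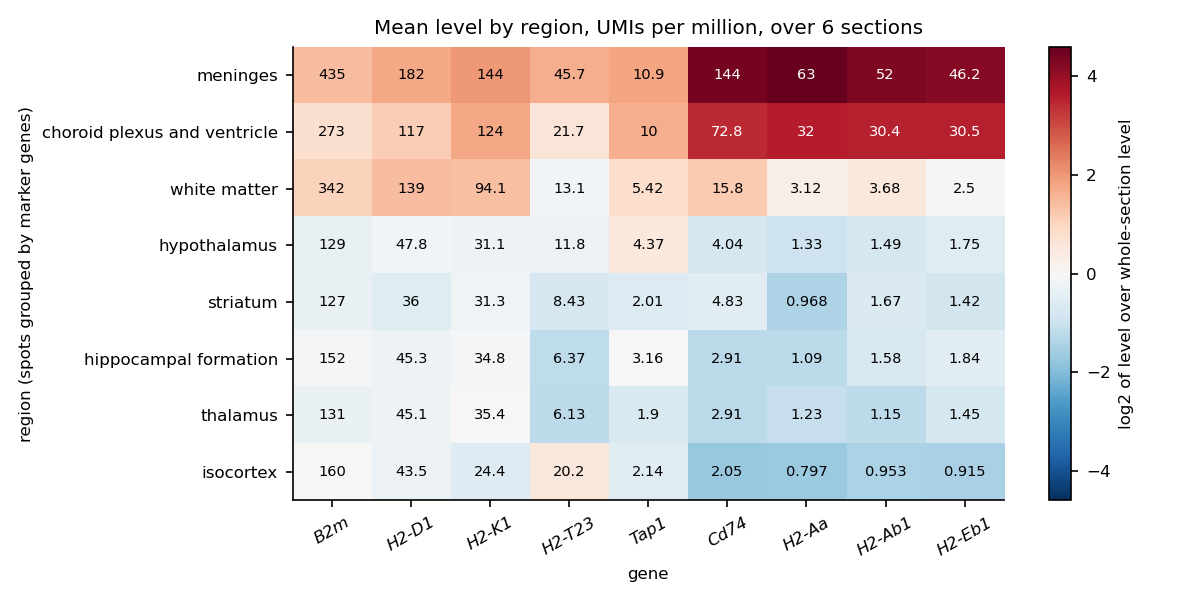
Mean level of each gene (columns) in each region (rows), in CPM, averaged over 6 sections, with the colour giving the log2 of that level over the whole-section level of the same gene. Numbers compare down a column. All 4 class II columns are dark red in meninges and in choroid plexus and ventricle, while class I columns differ less between regions and H2-T23 is higher in isocortex (20.2) than in white matter (13.1).

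The border tissues held much of the class II signal. Meninges and choroid plexus and ventricle together held 32.3% to 59.4% of a section's class II UMIs, but only 2.60% to 4.26% of all its UMIs and 6.51% to 10.12% of its class I UMIs. Between 30 and 56 spots per section had 5 or more class II UMIs, and these spots held 47.8% to 62.5% of the class II UMIs. Between 15 and 36 spots per section lay near this limit, with 4 to 6 UMIs. Markers of border macrophages (10 genes, such as Mrc1 and Pf4) summed to 4.30 to 9.08 times their level in other spots, monocyte and neutrophil markers to 5.98 to 25.4 times, and neuron markers to 0.332 to 0.727 times. Pericyte and smooth muscle markers were at 1.77 to 3.95 times, endothelium markers at 1.46 to 2.08 times and the T and NK cell list at 0.389 to 0.791 times. Microglia markers were at 1.06 to 1.29 times, and at 1.096 to 1.60 times without Sparc, which other cells also express. Most of these spots were in meninges or choroid plexus, so region and cell type cannot be told apart there.

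Across the 48 sums of 8 regions in 6 sections, the class II genes followed each other most closely, with Pearson correlations of log2 CPM from 0.94 to 0.99 over 6 pairs. Class I pairs ran from 0.62 to 0.97 over 10 pairs, and pairs of class I with class II genes from 0.68 to 0.92 over 20. These sums share sections and depth, and the values are a description. Among 11717 genes compared, the 3 most like B2m were H2-D1 (0.97), H2-K1 (0.92) and Psmb8 (0.91), a subunit of the immunoproteasome that cuts peptides for class I. The genes most like H2-K1 were Ifitm3 (0.96), Ltbr (0.96) and Ctsh (0.96), and those most like Cd74 were H2-Ab1 (0.97), H2-Aa (0.96) and Anxa2 (0.95). H2-Eb1 was nearest to H2-Aa (0.98), H2-Ab1 (0.98) and Mgp (0.95). Tap1 was nearest to Tmem176b (0.89), Parp12 (0.88) and Crtap (0.87). H2-T23 had weaker neighbours, with Map2k3 (0.82), Cd302 (0.82) and Rhbdf1 (0.81).

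The first age comparison asked whether the 9 genes differ between ages in the section as a whole. All 9 had a higher fitted level in old than in young sections, and none was called by edgeR, against 0.164% of the 17673 genes tested. At an unadjusted p under 0.05 there were 4 of the 9, against 12.7% of all genes. Tap1 had the largest change. Its young sections were at 1.78 and 2.40 CPM, its middle ones at 3.32 and 3.67 and its old ones at 3.56 and 3.99. Both young sections were below the other 4, and the log2 fold change of old over young was 0.80 (SE 0.16, n = 2 per age, edgeR adjusted p = 0.128). DESeq2 called Tap1 and no other member (adjusted p = 0.0232), and its background was 1.05% of genes.

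Cd74 was at 4.85 and 5.97 CPM in young, 5.32 and 7.83 in middle and 7.49 and 9.52 in old whole sections, a log2 change of 0.60 (SE 0.20, edgeR adjusted p = 0.310). Both old sections were above both young ones, and the middle sections overlapped both groups. H2-Ab1 changed by 0.49 (SE 0.19), H2-K1 by 0.36 (SE 0.15), H2-Aa by 0.36 (SE 0.22) and H2-D1 by 0.35 (SE 0.12) on the log2 scale. H2-Eb1 (0.25, SE 0.19), B2m (0.17, SE 0.13) and H2-T23 (0.07, SE 0.15) moved least. Over the whole section 6 of the 9 had both old sections above both young ones, against 32.1% of genes. The 9 had a median log2 change of 0.36, against -0.0023 over all genes tested. No set test was made of this.

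Young 1 set part of the class I differences. B2m was at 129 CPM in young 1 and 168 in young 2, and between 156 and 189 in the other 4 sections. For H2-T23 the change of old over young was -0.15 when young 1 was left out.

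Middle against young gave 0 called members in edgeR, against 0.0679% of genes, and 0 in DESeq2, against 0.396%. At an unadjusted p under 0.05 there was 1, Tap1 (log2 change 0.72, SE 0.15, edgeR adjusted p = 0.316), against 7.82% of genes. Old against middle gave 0 called members, against a background of 0%, with 0 in DESeq2 (background 0%) and 0 at an unadjusted p under 0.05, against 2.04% of genes. Changes between old and middle ran from -0.10 (H2-T23) to 0.35 (H2-Eb1) on the log2 scale.

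In white matter Cd74 rose between young and old. The young sections held Cd74 at 4.66 and 5.86 CPM, the middle ones at 10.38 and 17.1 and the old ones at 26.4 and 30.5 (the plot of levels per section). The 3 ages did not overlap, and both young sections were at the bottom. Old exceeded young by 2.38 on the log2 scale (SE 0.26, n = 2 per age, edgeR adjusted p = 5.13e-07). This was called in all 16 alternatives, DESeq2, a slide block and each section left out among them, with log2 changes from 2.17 to 2.76. The order of the 3 ages held on slide 1, and slide 2, which had no young section, had old above middle. On slide 1 the value went from 4.66 and 5.86 over 10.38 to 26.4 CPM, and on slide 2 from 17.1 to 30.5.

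H2-Ab1 was at 1.165 and 1.172 CPM in young, 1.07 and 3.80 in middle and 6.44 and 8.41 in old white matter. Both old sections were above the other 4, and middle 1 was as low as the young sections. The log2 change of old over young was 2.58 (SE 0.53, edgeR adjusted p = 0.00443), but the gene had 4 UMIs in each young section, so it was tested only because of its older sections. The call was lost with DESeq2 (adjusted p = 0.115), with slide as a block (0.102) and without old 2 (0.134), with log2 changes from 2.15 to 2.61.

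H2-Aa was at 1.75 and 0.88 CPM in young, 1.07 and 4.76 in middle and 3.54 and 6.73 in old white matter, a log2 change of 1.90 (SE 0.62, edgeR adjusted p = 0.120). H2-Eb1 was at 0.874 and 0.879 in young, 1.33 and 4.12 in middle and 3.86 and 3.92 in old, a log2 change of 2.05 (SE 0.65, adjusted p = 0.104). In both genes the old sections were above the young ones and overlapped the middle ones, and neither was called. Counts were small. H2-Aa, H2-Ab1 and H2-Eb1 had fewer than 10 UMIs in both young white matter sums, so they passed the filter on low counts through the older sections, while the other 6 members reached 10 UMIs in every young section.

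Of the class I genes, H2-K1 alone was called in old white matter. It was at 65.5 and 87.3 CPM in young, 85.5 and 82.7 in middle and 117 and 127 in old white matter. Both old sections were above the other 4, and the middle sections were within the young range. Old exceeded young by 0.62 on the log2 scale (SE 0.12, edgeR adjusted p = 0.00167). The call was lost without old 2 (adjusted p = 0.0808) or without young 1 (0.0591).

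B2m was at 170 and 336 CPM in young, 328 and 316 in middle and 385 and 518 in old white matter, and the log2 change was 0.78 (SE 0.40, edgeR adjusted p = 0.575). Young 1 stood far below young 2. H2-D1 had the same shape, with 69.0 and 141 CPM in young, 124 and 129 in middle and 167 and 207 in old, a log2 change of 0.78 (SE 0.38, adjusted p = 0.562). Without young 1 the change of B2m was 0.39 and that of H2-D1 0.37. Without young 2 they were 1.32 and 1.35, and both were then called.

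H2-T23 was at 4.95 and 12.6 CPM in young, 15.2 and 7.29 in middle and 18.7 and 19.6 in old white matter, a log2 change of 1.07 (SE 0.40, edgeR adjusted p = 0.283). Tap1 was at 3.204 and 3.224 in young, 5.86 and 5.07 in middle and 4.51 and 10.7 in old, a log2 change of 1.198 (SE 0.41, adjusted p = 0.145). Neither was called, and the Tap1 value of old 2 was more than that of any other section. With each section left out, H2-T23 ranged from 0.56 without young 1 to 1.86 without young 2, where it was called, as it was with no filter. Tap1 ranged from 0.43 without old 2 to 1.65 without old 1, where it was called.

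Of the 6 members with at least 10 UMIs in each young white matter section, old against young called 2 (Cd74 and H2-K1), against 2.27% of the 11678 genes that reached the same level. At an unadjusted p under 0.05 there were 4 of these 6, against 12.5%. The old sections were above the young ones for all 6, against 27.7% (28.5% of all genes tested), and Cd74 alone of them had the 3 ages in order without overlap, against 3.71% of the 12632 genes tested. H2-Ab1 was the only other member called, with the limit given above, and the background over all genes tested was 2.35%. The median log2 change of the 5 class I members was 0.78, against -5.26e-05 over all genes. DESeq2 called 2 (Cd74 and H2-K1), against 0.99%, and so did the fit with slide as a block, for which no background is given.

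**Figure D2:**
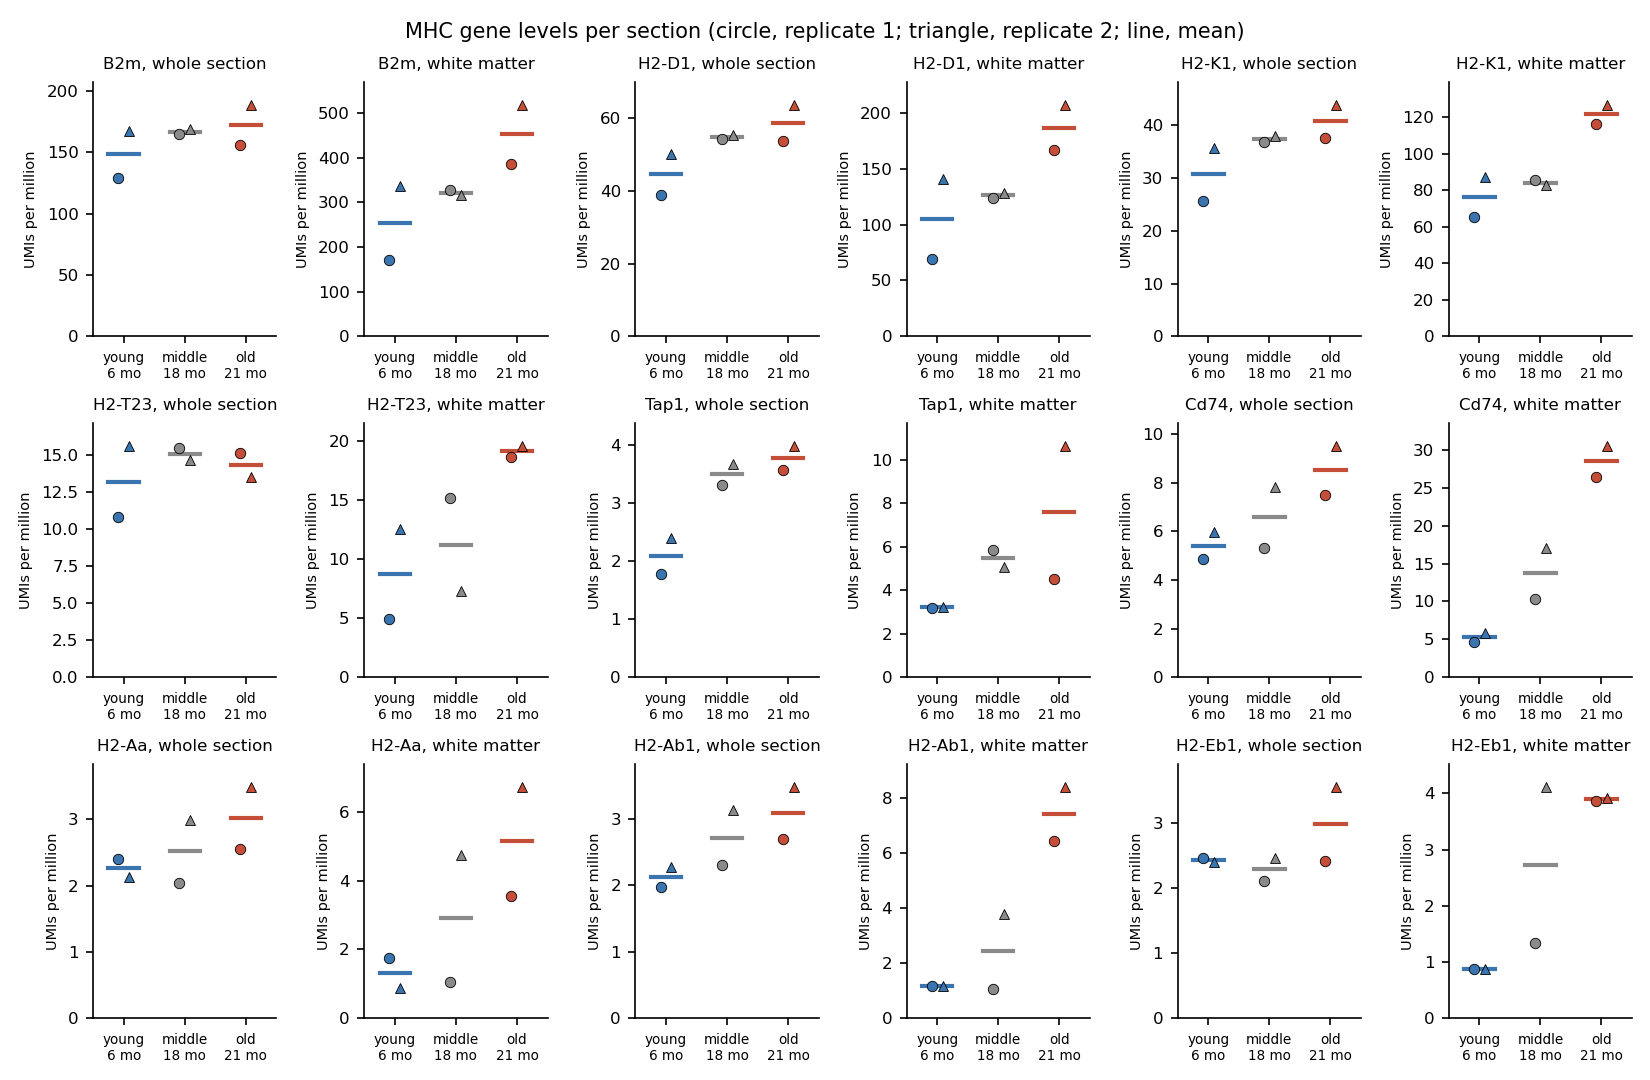
Levels of the 9 genes in whole sections and in white matter, in CPM on axes that start at 0, at 6, 18 and 21 months (mo). Each point is a section (circle, replicate 1; triangle, replicate 2) and each line the mean of 2 sections. White matter Cd74 separates the 3 ages, from 4.66 and 5.86 in young to 26.4 and 30.5 in old, while B2m and H2-D1 are low in young 1.

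Middle against young in white matter gave 1 called member, Cd74, against 3.22% of genes. Its log2 change was 1.32 (SE 0.29, edgeR adjusted p = 0.00901). At an unadjusted p under 0.05 there were 2 members, against 15% of genes. The call of Cd74 was lost with DESeq2 (0.0963, background 0.705%), with slide as a block (0.0675) and without middle 2 (0.316). Old against middle gave 2, against 0.396% of genes. These were Cd74 (log2 change 1.05, SE 0.21, adjusted p = 0.0188) and H2-K1 (0.51, SE 0.12, 0.0393), and DESeq2 called neither, at adjusted p of 0.568 and 0.582 (background 0.15%). There were 3 members at an unadjusted p under 0.05, against 9.01% of genes. Both calls were also lost without middle 1 (0.350 for Cd74, 0.214 for H2-K1), without middle 2 (0.0508, 0.421) and without old 2 (0.539, 0.724), and H2-K1 was lost without old 1 (0.0809). The comparisons with young share the young sections, and those with old share the old sections.

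White matter spots with at least 1 class II UMI made up a larger share in older sections (the bar chart of spots with class II). They were 7.22% and 6.37% of white matter spots in young, 15.7% and 21.4% in middle and 22.9% and 31.0% in old sections. The exact 95% binomial intervals were 4.47% to 10.9% for young 1 and 25.8% to 36.7% for old 2, and they cover counting error only. Those of middle 2 (16.3% to 27.3%) and old 1 (18.2% to 28.2%) overlapped. With each spot thinned to 3000 UMIs, which left out at most 5 spots of a section, the shares were 2.53% and 2.56% in young, 5.39% and 7.05% in middle and 8.74% and 11.6% in old. The ages kept their order after this random thinning. The intervals of neighbouring ages overlapped, as for middle 2 (4.08% to 11.2%) and old 1 (5.74% to 12.6%). In the isocortex, where class II was lowest, thinned shares were 0.658% and 0.668% in young, 1.18% and 1.26% in middle and 1.12% and 1.33% in old. Both young shares were the lowest there too, from 5 spots each, against 8 or 9 spots in the other sections. Isocortex spots were deeper, with medians of 30285 to 41325 UMIs against 9586.5 to 14579 in white matter. The thinned shares in meninges were 40.3% and 41.5% in young, 44.2% and 53.2% in middle and 57.7% and 63.0% in old. The ages had the same order there without overlap of these shares, although the shares before thinning overlapped (72.1% in middle 1, 75.8% in young 1). Thinned intervals overlapped there too, as for young 2 (26.3% to 57.9%) and old 1 (43.2% to 71.3%). Those in choroid plexus and ventricle were 17.0% and 24.4%, 19.0% and 20.3%, and 25.4% and 25.9% after thinning.

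The higher level was spread over many spots. The summed level of the 4 class II genes in white matter was 8.45 and 8.79 CPM in young, 13.8 and 29.8 in middle and 40.3 and 49.6 in old. Without the 5 spots of each section with the most class II UMIs it was 4.55 and 5.08, 10.2 and 19.5, and 29.0 and 41.7 CPM. The old values were above all others either way. The naming rule, chosen after the clusters were seen, left 7 clusters unnamed, and the largest of them with myelin genes among its leaders (823 spots) was closest to white matter. The unnamed clusters made up 20.3% and 18.7% of spots in young, 18.4% and 18.9% in middle and 22% and 21.4% in old sections. Their class II sum was 6.99 and 8.31 CPM in young, 11.35 and 16.7 in middle and 15.8 and 11.36 in old.

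**Figure D3:**
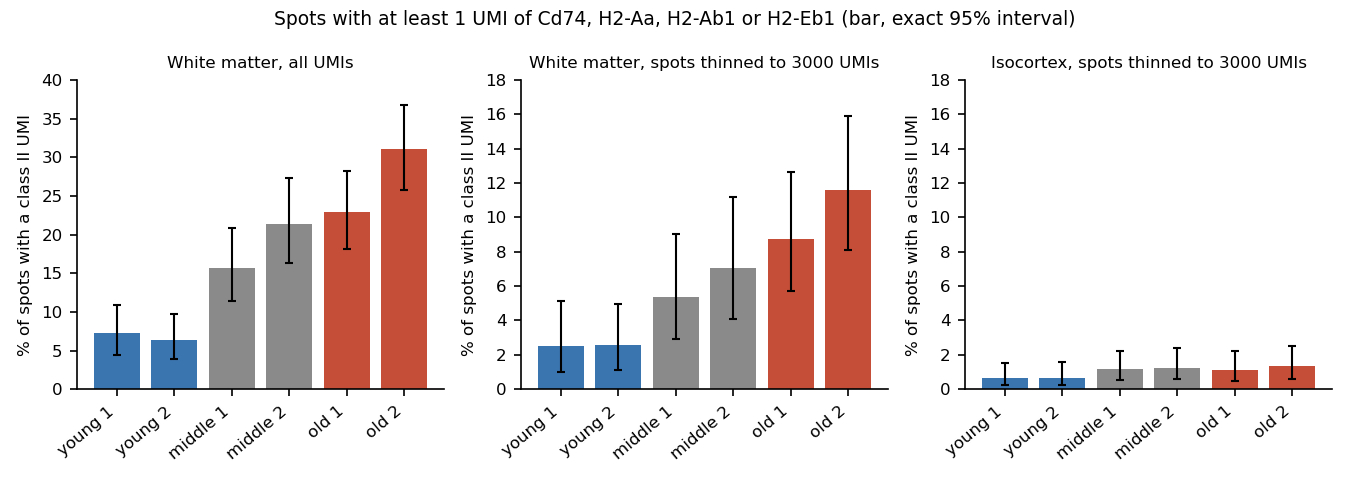
Share of spots with at least 1 UMI of Cd74, H2-Aa, H2-Ab1 or H2-Eb1 in each section (bars, in percent, with exact 95% intervals), in white matter with all UMIs, in white matter thinned to 3000 UMIs per spot and in isocortex thinned likewise. White matter bars go from 7.22% and 6.37% in young to 22.9% and 31.0% in old. The thinned isocortex bars are at 0.658% and 0.668% in young and at 1.12% and 1.33% in old.

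Other cell type markers moved in the same white matter sums. Microglia markers (12 genes) summed to 959 and 1020 CPM in young, 1191 and 1406 in middle and 1361 and 1599 in old, and 5 of the 12 were called higher in old than young, against 2.35% of genes. Sparc made up 32.1% to 45.6% of that sum, and without it, a choice made after its share was seen, the sum was 581 and 627 CPM, then 729 and 765, then 925 and 1031. Border macrophage markers summed to 25.9 and 16.1 in young, 20.2 and 21.9 in middle and 16.1 and 33.4 CPM in old, and 0 of the 3 tested were called by edgeR, with 0 at an unadjusted p under 0.05. Neuron markers were at 1142 and 1094, 1558 and 1857, and 1321 and 1200 CPM, and 4 of 11 were called higher in middle than young, against 3.22% of genes, and 0 in old than young. Astrocyte markers were at 3952 and 4146, 4220 and 4480, and 4949 and 5588 CPM, with 2 of 10 called higher in old than young, against 2.35%. B and plasma cell markers summed to 16.6 and 19.0 CPM in young, 26.9 and 35.5 in middle and 29.9 and 33.4 in old, most of it Ighm, the heavy chain of immunoglobulin M, with 49 and 55, 89 and 88, and 86 and 101 UMIs. Ighm, the only gene of that list tested, was called higher in old (log2 change 0.82) and in middle (0.72) than in young. Monocyte and neutrophil markers were at 18.6 and 9.38 CPM in young and at most 13.2 in the other sections, and 0 of 1 tested was called. Their part in the MHC changes was not tested.

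Markers of T cells and natural killer cells were sparse in white matter. The T cell receptor component Cd3e had 0 to 3 UMIs per section, and the B cell marker Ms4a1 and the cytotoxic genes Gzma and Gzmb had none. Old 2 stood apart in this respect, with 52 UMIs of the chemokine Ccl5, 12 of Cd3g, 14 of Nkg7 and 7 of Cd8a, against at most 17, 2, 3 and 2 in the other 5 sections. Their part in the MHC values of old 2 was not tested. The summed T and NK cell list (159 and 159 CPM in young, 210 and 254 in middle, 185 and 217 in old) is mostly Thy1, which neurons also express. Likewise the summed dendritic cell list is mostly Cst3, which glia express, while Xcr1, Clec9a and Ccr7 had 0 UMIs in white matter. On the dendritic list, Itgax, which microglia also express in aged and diseased brain, had 2 and 1 white matter UMIs in young, 20 and 15 in middle and 30 and 57 in old. Without old 2, Cd74 in white matter kept its call, with an edgeR adjusted p of at most 6.78e-05 over the 6 fits with a section removed.

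Within white matter, spots with a class II UMI were compared with spots without one in the same section. Class I members summed to 1.25 to 2.39 times the level of the other spots, higher in 6 of 6 sections. Microglia markers were at 0.955 to 1.37 times (0.918 to 1.40 without Sparc), higher in 5 of 6, and border macrophage markers at 0.444 to 3.81 times, higher in 4 of 6. Astrocyte markers (0.951 to 1.47 times) and neuron markers (0.917 to 1.33 times) were also higher in 5 of 6. The T and NK cell list (1.05 to 1.47 times) was higher in 6 of 6. Endothelium markers were higher in 3 of 6 and the dendritic cell list in 1 of 6. White matter markers were at 0.724 to 0.939 times, lower in all 6 sections. Spots with a class II UMI were also deeper, with median UMIs of 11941 to 17835.5 against 9013.5 to 14276.5.

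Whether the age change differed between white matter and the remaining spots of the same sections was tested as an interaction. The remaining spots included meninges and choroid plexus and ventricle, which held 32.3% to 59.4% of a section's class II UMIs. In isocortex alone Cd74 changed by 1.16 (SE 0.30) and H2-Ab1 by 1.90 (SE 0.70), neither called, and white matter was not tested against isocortex. The interaction was called for 4 of 9 members, H2-Ab1 with its 4 UMIs per young white matter sum among them, against 1.63% of 16778 genes. All 9 had a larger fitted change in white matter. The difference was 1.97 for Cd74 (SE 0.29, edgeR adjusted p = 5.24e-09), 2.26 for H2-Ab1 (SE 0.55, 0.00579), 1.06 for H2-T23 (SE 0.25, 0.00285) and 0.54 for H2-D1 (SE 0.12, 0.00428) on the log2 scale. Cd74 was called in all 13 alternatives, H2-Ab1 in 8, H2-T23 in 7 and H2-D1 in 3. There were 8 at an unadjusted p under 0.05, against 9.95% of genes. DESeq2 called Cd74 and B2m only, against 0.364%. For H2-D1 the difference was 0.21 without young 1 and 0.97 without young 2, and for H2-T23 it was 0.75 and 1.61. H2-Ab1 lost its call without young 1 (adjusted p = 0.0516), young 2 (0.117) or old 2 (0.110), and H2-T23 without young 1 (0.191) or old 2 (0.174). H2-D1 kept its call without young 2 only, with adjusted p of 0.0674 to 0.675 when another section was left out.

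Outside white matter, no member was called by edgeR in old against young in any of the 7 other regions, and DESeq2 called none there. The background shares were 0.2% in isocortex, 0.0224% in hippocampal formation, 0.0798% in thalamus, 0.0499% in hypothalamus, 0.136% in striatum, 0.318% in meninges and 0.0503% in choroid plexus and ventricle. The DESeq2 backgrounds were 0.238%, 0.0298%, 0.109%, 0.0642%, 0.0959%, 0.154% and 0.0671% in the same order. At an unadjusted p under 0.05 there were 2 members in isocortex (11.3% of genes), 0 in hippocampal formation (3.91%), 0 in thalamus (4.99%), 3 in hypothalamus (6.02%), 4 in striatum (9.45%), 4 in meninges (6.18%) and 1 in choroid plexus and ventricle (7.22%). Both old sections were above both young ones for 6 members in isocortex (28.1% of genes), 4 in hippocampal formation (17.2%), 2 in thalamus (26.7%), 3 in hypothalamus (23.9%), 4 in striatum (26.6%), 4 in meninges (17.4%) and 1 in choroid plexus and ventricle (17.6%). All 9 were tested except in striatum, where H2-Aa, H2-Ab1 and H2-Eb1 were too low, and in meninges, where Tap1 was too low.

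In isocortex Cd74 was at 1.12 and 1.13 CPM in young, 1.93 and 2.83 in middle and 1.89 and 3.39 in old, a log2 change of 1.16 (SE 0.30, edgeR adjusted p = 0.166). Both young sections were below the other 4. H2-Ab1 there was at 0.225 and 0.431 in young, 0.899 and 1.53 in middle and 0.564 and 2.07 in old, a log2 change of 1.90 (SE 0.70, adjusted p = 0.382). Single spots weighed more in isocortex than in white matter. In old 2, 1 isocortex spot held 61 class II UMIs of 161, and in middle 1 another held 46 of 134.

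In meninges Cd74 was at 115 and 133 CPM in young, 111 and 139 in middle and 161 and 203 in old, a log2 change of 0.55 (SE 0.19, edgeR adjusted p = 0.498). The old sections were above the other 4. H2-Aa (0.67, SE 0.26), H2-Ab1 (0.56, SE 0.25) and H2-K1 (0.39, SE 0.19) had unadjusted p under 0.05 in meninges, and H2-Aa was called without old 1 (log2 change 1.06, adjusted p = 0.0286). In choroid plexus and ventricle the class II sum ranged from 88.2 to 315 CPM within the young pair alone, and the log2 changes of the 4 class II genes lay between -0.25 and -0.09 with SE of 0.59 or more. Young 2 decided their sign, since without it the changes were 0.99 for Cd74, 0.84 for H2-Aa, 0.70 for H2-Ab1 and 0.79 for H2-Eb1. Tap1 was at 4.25 and 8.42 CPM in young and 11.8 and 11.5 in old choroid plexus and ventricle, a log2 change of 0.96 (SE 0.42, adjusted p = 0.651).

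Tap1 had an unadjusted p under 0.05 in hypothalamus (log2 change 1.27, SE 0.39, edgeR adjusted p = 0.712) and in striatum (1.51, SE 0.60, 0.468) as well. In hypothalamus it was at 1.46 and 3.65 CPM in young, 3.59 and 5.86 in middle and 5.81 and 5.83 in old. In striatum it was at 0.923 and 1.28, 2.49 and 1.02, and 2.98 and 3.36 CPM. H2-K1 (0.83, SE 0.23), H2-D1 (0.58, SE 0.20) and B2m (0.50, SE 0.20) also had an unadjusted p under 0.05 in striatum, with young 1 lowest of the 6 sections for each. Without young 2, a fit with 1 young section, some members passed the call limit in striatum, and no background is given for that fit. In hippocampal formation, B2m (-0.10, SE 0.13) and H2-D1 (-0.09, SE 0.17) had fitted changes below 0, and in thalamus the class II changes lay between -1.09 and -0.40 with SE of 0.57 or more. Without young 1 those of Cd74 (0.93), H2-Aa (0.19) and H2-Ab1 (0.54) were above 0.

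**Figure D4:**
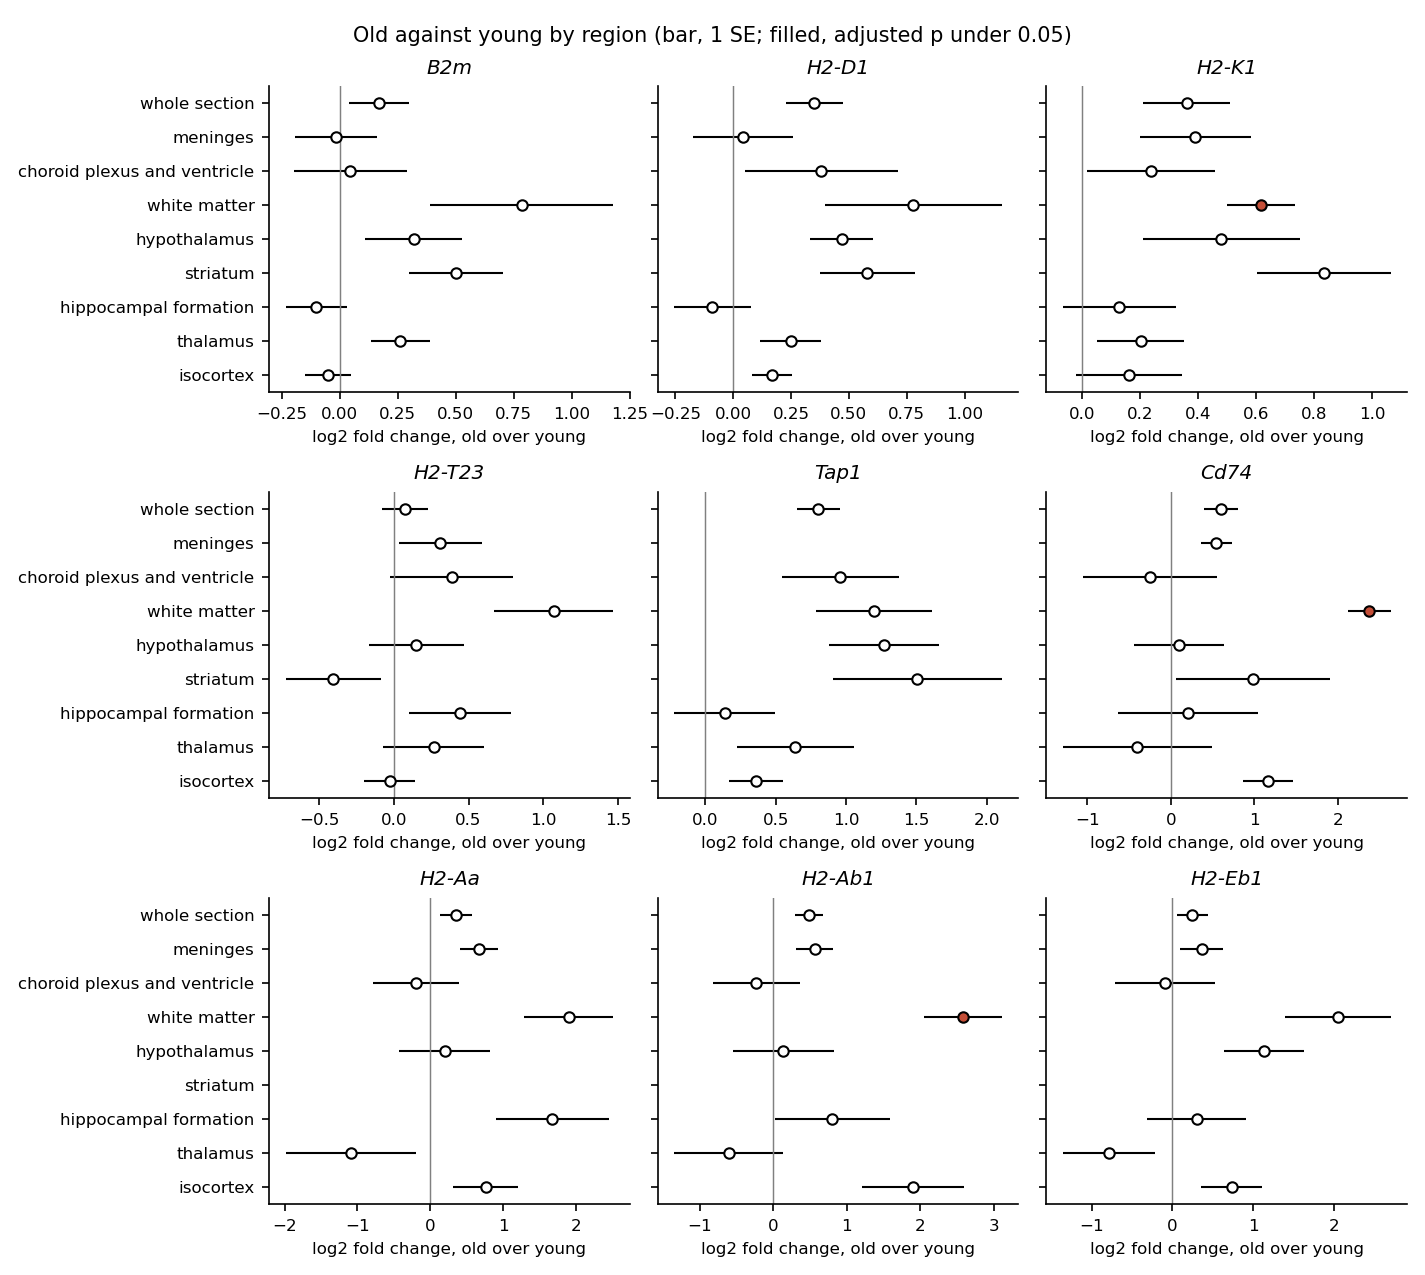
Log2 fold change of old over young sections for each gene (panels) in the whole section and 8 regions (rows), with bars of 1 SE from edgeR over 6 sections and filled points for adjusted p under 0.05. The x axes differ between panels. The 3 filled points are H2-K1, Cd74 and H2-Ab1 in white matter, and rows with no point were too low to test.

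Other genes of the pathway were described from lists of loading factors, other MHC chains, regulators and receptors. Over the whole section none of the 67 tested in these 5 lists was called by edgeR in old against young, and 25 had an unadjusted p under 0.05, against 12.7% of all genes. In white matter the class I side gave no calls, against 2.35% of genes called and 12.9% at an unadjusted p under 0.05. Of 13 genes for class I processing and loading, 0 were called, 5 had an unadjusted p under 0.05, and the median log2 change was 0.31, against -5.26e-05 over all genes. Canx and Calr, chaperones of the heavy chain, changed by 0.09 (SE 0.10) and 0.20 (SE 0.11). Of 21 other class I heavy chain and class I-like genes, 8 were high enough to test, 0 were called and 3 had an unadjusted p under 0.05. H2-T22 was at 9.90 and 8.79 CPM in young, 14.1 and 14.9 in middle and 11.6 and 12.6 in old, and Fcgrt, the neonatal Fc receptor, changed by 0.28 (SE 0.17).

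On the class II side, 2 of 9 tested genes were called higher in old white matter, and 7 had an unadjusted p under 0.05, against 2.35% and 12.9% of genes. H2-DMb1, a chain of the H2-DM exchanger that frees the groove for peptide, was at 2.62 and 3.22 CPM in young, 5.06 and 5.07 in middle and 7.08 and 11.2 in old, a log2 change of 1.59 (SE 0.38, edgeR adjusted p = 0.0149). Cd86, a costimulatory ligand of T cells, was at 3.50 and 2.93 in young, 6.12 and 5.71 in middle and 8.05 and 9.53 in old, a log2 change of 1.39 (SE 0.36, 0.0284). The 3 ages did not overlap for either gene. H2-DMb1 had 9 UMIs in young 1 and 11 in young 2, so it passed the filter on low counts through its older sections. Neither was called by DESeq2, with slide as a block (adjusted p of 0.158 and 0.130) or with only the groups compared (0.0565 and 0.0729). H2-DMb1 was also lost without young 1 or old 2, and Cd86 was lost whenever any of the 6 sections was left out. The lysosomal proteases Ctsl and Lgmn changed by 0.24 (SE 0.10) and 0.19 (SE 0.10) and were not called.

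Of 17 regulators tested in white matter, 1 was called in old against young (Irf8), against 2.35% of genes, and 2 had an unadjusted p under 0.05, against 12.9%. Irf8, a transcription factor of microglia and other myeloid cells, was at 7.57 and 4.69 CPM in young, 11.2 and 14.9 in middle and 20.0 and 19.6 in old, a log2 change of 1.62 (SE 0.26, edgeR adjusted p = 0.000272). The call held in all 16 alternatives, and its change in white matter exceeded that in the remaining spots by 1.36 (SE 0.32, adjusted p = 0.00268). Jak1 (0.19, SE 0.13) and Nfyb (0.02, SE 0.18), the kinase below interferon receptors and a subunit of the factor that binds the Y box, were not called.

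The last list held receptors of MHC molecules and of related families, together with Mif and Cd44, a ligand and a coreceptor of Cd74, and Cxcr4. A call in this list is therefore not always that of an MHC receptor. Of its 14 genes, 4 were high enough to test in white matter, and 3 were called, against 2.35% of genes. Lag3, with 8 UMIs in young 1 and 14 in young 2, and Lilrb4a, with 3 in each, had fewer than 10 in young 1. Both passed the filter on low counts through their older sections. Of the called genes, only Cd44 had at least 10 UMIs in each young section, a level at which 2.27% of genes were called. Lag3, a ligand of class II found on T cells and microglia, was at 2.33 and 4.10 CPM in young, 6.66 and 6.98 in middle and 12.9 and 14.3 in old, a log2 change of 2.01 (SE 0.32, edgeR adjusted p = 0.000252), called in all 16 alternatives. Lilrb4a, an inhibitory receptor of myeloid cells, changed by 2.62 (SE 0.59, 0.00974), from 0.874 and 0.879 CPM in young to 4.51 and 7.01 in old, but with 3 UMIs in each young section it was tested only because of its older sections. Cd44, which forms a receptor complex with Cd74, was at 10.2 and 7.62 in young, 7.19 and 12.1 in middle and 15.8 and 25.8 in old, a log2 change of 1.17 (SE 0.27, 0.0159). DESeq2 and the slide block called neither Lilrb4a nor Cd44, nor were these called without old 2, and Cd44 was also lost without young 2. Mif, the ligand of Cd74, changed by -0.12 (SE 0.10) and was not called.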

How the data were processed

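Spatial transcriptomes of 6 coronal mouse brain sections were measured with Visium, 2 sections per age. Each deposited matrix gives the number of UMIs (raw counts) of a gene in a spot. The authors made it with Space Ranger, whose version is 1.3.1 per the file headers and 3.1 per the submitters' processing notes, on build mm10 per the submitters' processing notes. Aligner settings and annotation are not given in the sources used here. No normalization had been applied.

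Spots under 500 UMIs were removed (2 of 16743). The remaining 16741 were clustered with scanpy 1.11.5 in Python 3.11.15 (2000 variable genes scaled per section, 30 principal components, 20 neighbours, Leiden resolution 0.8), with 219 genes kept out, among them the 9 genes and the pathway and cell type lists. Of 23 clusters, 16 were named and 7 (3343 spots) were left unnamed. A cluster took a region's name with at least 3 of its markers among the 50 leading genes, at least 2 among the 10 leading, and more than 3 times the next region's number, a rule chosen after the clusters were seen. A spot can hold several cells, so no doublet caller was used. Between sections, 3109 of 3389 barcodes recur, since a barcode marks an array position.

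UMI counts were summed per section and region. edgeR 4.0.16 in R 4.3.3 (quasi-likelihood test with the legacy dispersion, robust, TMM factors, filterByExpr) was fitted over all 6 sections with age as the term, which leaves 3 residual degrees of freedom, and p-values were Benjamini-Hochberg adjusted over all genes tested. The interaction fit used section as a block. Counts of replicate sections differed by 23.4 to 44.7 times the sampling noise (chi-square per degree of freedom), so no section was a repeat deposit. The alternatives tried were RLE factors, DESeq2 1.42.0, no filter, slide and replicate blocks, other clusterings, another white matter definition and each section left out. The script was tested on simulated counts.

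Named genes were the 9 members, from each pathway list up to 5 called genes of largest change plus the 2 of highest level, and for each member the 3 genes of highest correlation (log2 of CPM + 1, genes with mean CPM of at least 5). Genes such as those of the cell type lists were named outside this rule after their values were seen. The members and lists were chosen with earlier results of these data known.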

Additional observations from a re-analysis of the deposited data

Results flagged for a closer look

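The change between young and old sections differed between white matter and the remaining spots of the same sections for 4 of the 9 genes, by edgeR's test of the interaction. On the log2 scale the change in white matter exceeded that elsewhere by 1.97 for Cd74 (adjusted p = 5.24e-09), by 2.26 for H2-Ab1 (adjusted p = 0.00579), by 1.06 for H2-T23 (adjusted p = 0.00285) and by 0.54 for H2-D1 (adjusted p = 0.00428). H2-Ab1 had 4 UMIs in each young white matter sum. The remaining spots included meninges and choroid plexus and ventricle, with 32.3% to 59.4% of a section's class II UMIs. Cd74 was called in all 13 alternatives. H2-D1 was called in 3, and its difference was 0.21 without young 1. With 2 sections per age, no section was tested for standing apart within its group.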

How the results depend on the processing

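Of 210 recomputed counts of called members, 176 stayed within 1.5 times the reported count and 34 did not. In old against young over the whole section, DESeq2 and no filter each called 1 member. In white matter, old against young gave 5 members with no filter and 5 with white matter taken as the tenth of spots richest in its markers, and 1 to 6 with each section left out. Middle against young gave 0 with DESeq2, 0 with slide as a block, 3 with the tenth of spots and 0 to 3 with a section left out. Old against middle gave 0 with DESeq2, 0 with the tenth of spots, 5 with only the groups compared, 1 with edgeR's newer quasi-dispersion (chosen after seeing the data), 1 at each other clustering resolution and 0 to 5 with a section left out. With no filter, isocortex gave 1, hypothalamus 1 and striatum 3. With a section left out, striatum gave 0 to 4 and meninges 0 to 1. The interaction gave 2 with DESeq2, 2 with the newer quasi-dispersion, 2 at each other resolution and 2 to 4 with a section left out. These counts are given without the share of all genes called under the same alternative. The number of all genes called also moved between alternatives, so the counts describe the fits and not the members. A fit with a young, middle or old section left out has 1 section at that age. The cause was not tested. For 78 log2 changes, among them those of the members that the text prints and of the called pathway genes, 1173 values were recomputed and 23 had the other sign, all with a section left out. Over the sections left out, H2-T23 (-0.15 to 0.33) and H2-Eb1 (-0.060 to 0.50) reversed over the whole section. In white matter, middle against young, B2m ranged from -0.081 to 0.87, H2-D1 from -0.18 to 0.81, H2-K1 from -0.069 to 0.31, H2-T23 from -0.32 to 1.16, H2-Aa from -0.31 to 1.77 and H2-Ab1 from -0.15 to 1.62. In old against middle, Tap1 ranged from -0.30 to 0.92 and H2-Eb1 from -0.085 to 1.48. In the interaction, Tap1 ranged from -0.30 to 0.89. In choroid plexus and ventricle, Cd74 ranged from -0.95 to 0.99, H2-Aa from -0.87 to 0.84, H2-Ab1 from -0.88 to 0.70 and H2-Eb1 from -0.70 to 0.79. In thalamus, Cd74 ranged from -1.25 to 0.93, H2-Aa from -2.56 to 0.19 and H2-Ab1 from -1.42 to 0.54. Over all 14 comparisons and 122 changes of the members, 47 had the other sign under at least 1 alternative, and none of these 47 was a called change.

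Replicate numbers were not taken as pairs. Deviations of same-numbered sections correlated at 0.0063 (young and middle), 0.18 (young and old) and 0.34 (middle and old) over 17673 genes. For middle and old the replicate number is also the slide number, so those sections are paired by slide. The reported fit of old against middle has no slide term, and slide as a block was an alternative. With the replicate block, 3 members were called in white matter for old against young, 1 for middle against young, 2 for old against middle and 0 in the other comparisons fitted with it. The share of all genes called with that block is not given. The interaction has section as its block. The region of amygdala and olfactory cortex had no named cluster and was not run, and no meninges region was named at resolution 0.5. Depth limits H2-Aa, H2-Ab1 and H2-Eb1, which were below 10 UMIs in both young white matter sums.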
